A study of Mus musculus with 12 samples.

Results

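Macrophages and related myeloid cells were followed through 39 genes, chosen by gene symbol from the 55401 genes of the count table. Most are genes of receptors, complement proteins, transcription factors and lysosomal proteins by which these cells are usually recognised. Csf1 encodes a growth factor that acts on them. Which cells of the tissue expressed the 39 genes was not tested. All 39 passed the filter on low counts that left 15764 genes to be tested. They were measured by RNA sequencing in mouse left ventricle in 12 libraries, 3 for each of 4 groups. The groups were T497A mice after transverse aortic constriction (TAC), T497A mice after sham surgery, wild type (WT) mice after TAC and WT mice after sham surgery. T497A mice carry a threonine to alanine substitution in Prkca, the gene of protein kinase C alpha, and no other engineered allele is named in the labels. TAC narrows the aorta, here against a 27-gauge needle, so that the left ventricle pumps against a raised pressure. Surgery was done at 10 weeks of age and tissue was taken 5 weeks later in every group. The comparisons ask how myeloid genes respond to pressure overload in each genotype and whether that response differs between the genotypes.

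The healthy heart holds resident macrophages that clear dead cells and debris and that are known in mice by genes such as Timd4, Lyve1 and Folr2. Under pressure overload, monocytes enter from the blood and become further macrophages, which express more of the genes of phagocytosis, antigen handling and matrix repair. Both kinds depend on the growth factor receptor CSF1R and on the transcription factor PU.1, the product of Spi1. Cardiomyocyte is the cell type given in the labels, although the protocol there takes RNA from heart tissue and mentions no sorting. Defining macrophage markers were present in every library, Adgre1 between 6.27 and 16.6 CPM, and cardiomyocyte transcripts were far more abundant, with 8 markers adding up to between 39473 and 62996 CPM. CPM are counts scaled by library size and by a normalization factor for each library (TMM). In such tissue RNA, fewer cells of a type and less RNA per cell cannot be told apart.

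Library totals ran from 36862004 to 46898344 counts. Among counts of 1 to 20, 68.2% to 70.6% were even in the 12 libraries, where even and odd counts would be about equally frequent if each molecule added 1 count. A low count here may therefore stand for fewer molecules than its size, and the reason was not tested. The share was 63.7% to 66.2% among counts of 21 to 100 and 56.4% to 58.7% among counts of 101 to 1000. It touches members with more counts too: all 12 counts were even for Mpeg1, at 204 to 1122, and for Plac8, at 0 to 44. A substitution of 1 amino acid leaves the counts of Prkca with no sign of the allele, and the genotype labels were not checked from these data. Each title carries a heart number of its own, so the 12 libraries were taken as 12 hearts.

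In WT hearts TAC was accompanied by higher levels of most of these genes. Of the 39 members, 26 were called higher after TAC and 0 lower at an adjusted p of 0.05 (edgeR's quasi-likelihood test, adjusted over all tested genes by Benjamini-Hochberg). That is 66.7% of the members, against 12.3% of all tested genes called higher. The median log2 fold change of the members was 0.88, against 0.014 for all tested genes. In 29 members, 74.4%, the WT TAC libraries all lay above the WT sham libraries, which held for 21.5% of tested genes. The calls were spread over the roles. They held 9 of 11 general leukocyte and macrophage genes and 2 of 3 genes of the CSF1 axis and PU.1, Csf1r and Spi1. They also held 6 of 6 Fc receptor and ITAM adaptor genes, 4 of 5 complement genes and 3 of 3 pattern recognition genes. Of the recruited or activated genes 2 of 4 were called. Trem2 is counted both among the Fc receptor and ITAM adaptor genes and among the recruited or activated genes. Of 8 genes of scavenging and of uptake of dead cells, the 5 resident genes among them, 1 was called, Mrc1. That is 12.5%, near the 12.3% of all tested genes called higher.

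In T497A hearts the same 39 genes gave 1 call, Tlr2. That is 2.56% of the members, against 0.0634% of all tested genes called higher. An unadjusted p under 0.05 with a higher level after TAC was met by 15 of the 39, against 944 of all 15764 tested genes, and with a lower level by 0 members. The median log2 fold change was 0.38, against 0.0069 for all tested genes. In 12 members, 30.8%, the T497A TAC libraries all lay above the T497A sham libraries, which held for 7.71% of tested genes.

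**Figure D1:**
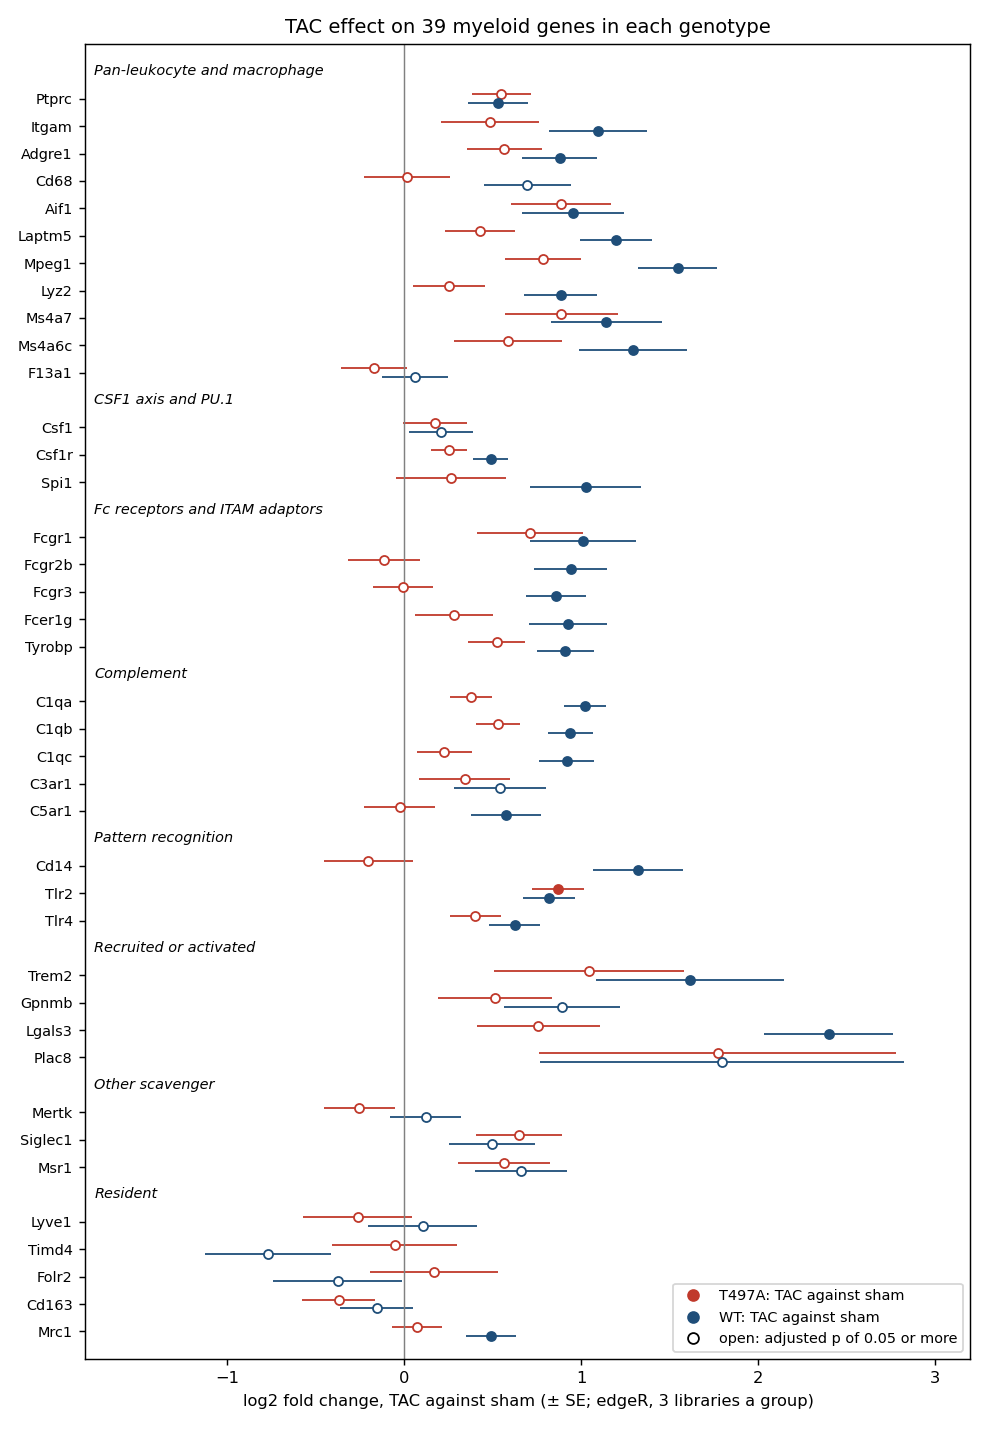
Log2 fold change after TAC against sham for each of the 39 genes, ordered by role, with T497A in red above WT in blue. Bars are standard errors from edgeR with 3 libraries a group, and filled points passed an adjusted p of 0.05: 26 genes in WT and Tlr2 alone in T497A.

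Adgre1, which encodes the macrophage surface protein F4/80, was at 11.9, 15.0 and 11.6 CPM in the T497A TAC libraries and at 6.27, 11.6 and 8.07 CPM after sham. In WT it was at 16.6, 10.7 and 15.7 CPM after TAC and at 7.5, 7.86 and 7.96 CPM after sham. The WT groups did not overlap and the T497A groups did. Adgre1 rose in WT (log2 fold change 0.88 ± 0.21 SE, adjusted p = 0.0089) and did not pass in T497A (0.57 ± 0.21, adjusted p = 0.32). Ptprc, the common leukocyte antigen CD45, was at 9.19, 12.1 and 11.5 CPM after TAC and 6.00, 9.40 and 7.04 CPM after sham in T497A. In WT it was at 9.53, 7.85 and 9.97 CPM after TAC and 6.19, 5.88 and 6.91 CPM after sham. Its fold changes were alike in size in both genotypes, 0.55 ± 0.17 in T497A and 0.53 ± 0.17 in WT, and the call in WT (adjusted p = 0.034) was not met in T497A (adjusted p = 0.22). The WT call of Ptprc was lost when any of 5 libraries was left out, WT sham replicates 1, 2 and 3 and WT TAC replicates 1 and 3. Cd68, a lysosomal glycoprotein of phagocytes, was at 4.40, 10.2 and 7.00 CPM in T497A TAC, 6.87, 7.71 and 6.78 CPM in T497A sham, 10.6, 8.68 and 7.36 CPM in WT TAC and 5.63, 6.17 and 4.59 CPM in WT sham. It missed the threshold in both genotypes, at 0.01 ± 0.24 in T497A and 0.70 ± 0.25 in WT (adjusted p = 0.055).

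The other general markers that rose in WT were Mpeg1, Ms4a6c, Laptm5, Ms4a7, Itgam, Aif1 and Lyz2. Mpeg1 encodes perforin-2, a pore-forming protein of phagocytes, and averaged 20.8 ± 3.29 CPM after TAC and 7.09 ± 1.65 CPM after sham in WT (SD, n = 3), a log2 fold change of 1.55 ± 0.22. The sham levels of Mpeg1 are given because they were seen not to overlap between the genotypes, though Mpeg1 was not called after sham. They were 13.4, 12.9 and 12.98 CPM in the T497A sham libraries, each above the highest WT sham library at 8.98 CPM. Lyz2, the lysozyme gene, had the highest level per length of the 39, at 42.2 ± 8.00 CPM per kilobase of exon in WT sham. F13a1, the factor XIII subunit found in resident tissue macrophages, had -0.17 ± 0.19 in T497A and 0.06 ± 0.19 in WT (adjusted p = 0.85). The exons of Itgam overlap the predicted gene Gm49368 on the same strand. Those of Ms4a6c overlap BE692007, and those of F13a1 overlap Gm30489, on the other strand, so these levels are uncertain.

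Csf1, Csf1r and Spi1, the genes of the CSF1 axis and of PU.1, had a median log2 fold change of 0.26 in T497A and 0.49 in WT. The general markers had medians of 0.55 and 0.96 in these genotypes. Csf1, which encodes the growth factor itself, was at 45.7, 55.4 and 37.6 CPM in T497A TAC and 32.4, 44.8 and 45.6 CPM in T497A sham. It was at 64.2, 54.4 and 58.5 CPM in WT TAC and 39.5, 55.9 and 57.9 CPM in WT sham. The groups overlapped in both genotypes, and Csf1 was not called (0.17 ± 0.18 in T497A and 0.21 ± 0.18 in WT). Csf1r, its receptor, was at 37.2, 44.5 and 34.8 CPM after TAC and 30.8, 34.4 and 32.3 CPM after sham in T497A. In WT Csf1r was at 47.8, 40.0 and 41.3 CPM after TAC and 30.4, 33.0 and 28.6 CPM after sham. All TAC libraries lay above the sham libraries of their own genotype. Csf1r rose in WT (0.49 ± 0.10, adjusted p = 0.0032) and did not pass in T497A (0.26 ± 0.10, adjusted p = 0.34). Its exons overlap those of Hmgxb3 on the other strand, and the use of strand in counting is not given, so its level is uncertain.

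Spi1 was at 1.58, 3.29 and 2.59 CPM in T497A TAC, 1.74, 2.16 and 2.29 CPM in T497A sham, 3.62, 2.75 and 2.42 CPM in WT TAC and 1.06, 2.10 and 1.13 CPM in WT sham. It rose in WT by 1.03 ± 0.31 (adjusted p = 0.028). That call was lost without WT sham replicate 1, WT sham replicate 3 or WT TAC replicate 1. Of 10 other myeloid transcription factor genes 4 were called higher in WT and 0 in T497A, where 3 had an unadjusted p under 0.05. Runx1 (1.64 ± 0.18) and Irf5 (1.34 ± 0.27) had the smallest p among them. Of 4 measured genes of the related growth factor family 1, the receptor subunit gene Csf2rb, was called in WT (1.03 ± 0.25). In WT 40% of the transcription factor genes and 25% of this family were called higher, against 12.3% of all tested genes.

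Fc receptors bind antibody-coated particles and signal through adaptors with ITAM motifs, Fcer1g and Tyrobp. All 6 genes of this group rose in WT, by 0.86 (Fcgr3) to 1.61 (Trem2) on the log2 scale. Tyrobp, the adaptor of TREM2, averaged 4.97 ± 0.89 CPM after TAC and 3.45 ± 0.32 CPM after sham in T497A, and 6.21 ± 0.20 CPM after TAC and 3.29 ± 0.31 CPM after sham in WT (SD, n = 3 each). Fcgr2b (ENSMUSG00000026656.15, chromosome 1, 170958617 to 170976547, GRCm38, minus strand) encodes the inhibitory Fc receptor. It was at 4.06, 7.44 and 7.78 CPM in T497A TAC, 6.89, 6.96 and 7.00 CPM in T497A sham, 10.5, 10.3 and 11.0 CPM in WT TAC and 6.67, 4.49 and 5.40 CPM in WT sham. The WT TAC libraries stood above all 9 others, and the T497A TAC libraries spread around the T497A sham libraries. Its log2 fold change was -0.11 ± 0.21 in T497A and 0.94 ± 0.21 in WT (adjusted p = 0.0045). Fcgr3, its activating neighbour, gave -0.0043 ± 0.17 in T497A and 0.86 ± 0.17 in WT. Fcgr2b, Fcgr3 and Fcer1g lie within 275749 bases on chromosome 1 (170958617 to 171234365, GRCm38), and the exons of Fcgr2b overlap the predicted gene Gm38204 on the other strand. Downstream of these receptors, 7 of 10 genes of ITAM kinases and their effectors were called higher in WT and 0 in T497A (2 with an unadjusted p under 0.05), with the smallest p for the kinase gene Syk (0.78 ± 0.09 in WT) and the phospholipase gene Plcg2 (1.05 ± 0.14).

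C1QA, C1QB and C1QC are the chains of C1q, the first component of the classical complement pathway, and macrophages are its main source. Their genes lie side by side within 18675 bases on chromosome 4 (136880129 to 136898803, GRCm38, all on the minus strand). RefSeq promoter windows, 250 bases before to 50 after a gene's start on GRCm38.p6, were at hand for 29 of the 39 members. The windows of C1qb (chr4:136886151-136886450, minus strand) and C1qc (chr4:136892865-136893164, minus strand) are shown because all 3 neighbours rose in WT and 1 of these windows holds a core motif of PU.1. Capitals mark the motif.
C1qb: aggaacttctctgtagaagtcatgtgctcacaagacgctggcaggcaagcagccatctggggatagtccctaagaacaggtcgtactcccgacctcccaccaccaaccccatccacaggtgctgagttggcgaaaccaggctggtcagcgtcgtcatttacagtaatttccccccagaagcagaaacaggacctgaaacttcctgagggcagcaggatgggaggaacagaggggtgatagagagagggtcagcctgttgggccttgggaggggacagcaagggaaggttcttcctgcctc
C1qc: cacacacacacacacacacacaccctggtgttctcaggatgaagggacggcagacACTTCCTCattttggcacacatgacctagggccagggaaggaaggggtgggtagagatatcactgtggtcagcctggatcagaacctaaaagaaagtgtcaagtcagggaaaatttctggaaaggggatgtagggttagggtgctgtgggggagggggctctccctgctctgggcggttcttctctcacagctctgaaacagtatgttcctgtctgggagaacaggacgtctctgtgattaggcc
The motif searched was GAGGAAGT on either strand, whose reverse complement is ACTTCCTC. It stands in C1qc from base 56 of the window, 195 bases before the transcription start on which that window is placed. The annotated gene start of C1qc lies further upstream, at base 136893065. In F13a1 the motif stands in 1 of the 2 windows, not the one at the annotated gene start. There it lies 14 bases after the transcription start on which that window is placed. C1qc and F13a1 are 2 of 29 members (6.90%), against 997 of 27025 genes with a window (3.69%). The E-box CACGTG, searched on either strand, stood in 0 of 29 members and in 2187 of the 27025 genes (8.09%). A match of letters is a description and not a bound site.

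C1qa (ENSMUSG00000036887.5, 136895917 to 136898803) was at 30.3, 39.9 and 29.7 CPM in T497A TAC and 23.4, 29.3 and 24.3 CPM in T497A sham. It was at 48.2, 43.5 and 42.1 CPM in WT TAC and 21.8, 23.1 and 21.0 CPM in WT sham. TAC libraries lay above the sham libraries in each genotype, and all WT TAC libraries lay above all T497A TAC libraries. C1qa rose 2.03-fold in WT (log2 fold change 1.02 ± 0.12, adjusted p = 5.5e-05) and had 0.38 ± 0.12 in T497A (adjusted p = 0.23). C1qb and C1qc rose in WT by 0.94 ± 0.13 and 0.92 ± 0.15, and had 0.53 ± 0.13 and 0.23 ± 0.15 in T497A without passing. C1qb came closest among the uncalled members in T497A, with an adjusted p of 0.13. Of the receptors for complement fragments, C5ar1 was called in WT (0.58 ± 0.20, adjusted p = 0.049) and C3ar1 was not (0.54 ± 0.26, adjusted p = 0.15). The call of C5ar1 was lost with 5 of the 6 WT libraries left out in turn, all but WT sham replicate 1.

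Tlr2, Tlr4 and Cd14 recognise microbial and damage-derived ligands, CD14 as the co-receptor that passes them on. Tlr2 was at 5.40, 6.21 and 5.79 CPM in T497A TAC and 3.14, 3.33 and 3.06 CPM in T497A sham. It was at 7.19, 6.19 and 7.08 CPM in WT TAC and 3.56, 3.49 and 4.59 CPM in WT sham. In both genotypes every TAC library lay above every sham library. Tlr2 (ENSMUSG00000027995.10, chromosome 3, 83836272 to 83841767, GRCm38, minus strand) was the member called in T497A, 1.83-fold higher (0.87 ± 0.15, adjusted p = 0.045), beside 1.76-fold in WT (0.82 ± 0.15, adjusted p = 0.0012). The difference between the genotypes' responses was 0.05 ± 0.21 (adjusted p = 0.93). The T497A call was lost when any T497A library but TAC replicate 1 was left out, with limma-voom and in a fit of the T497A libraries alone, while its size stayed between 0.82 and 0.92.

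Cd14 (ENSMUSG00000051439.7, chromosome 18, 36725067 to 36726798, GRCm38, minus strand) was not called in T497A. It was at 2.54, 4.25 and 2.73 CPM in T497A TAC and 3.38, 2.94 and 4.60 CPM in T497A sham, which overlap. In WT it was at 6.44, 6.61 and 7.597 CPM after TAC and 2.08, 2.502 and 3.72 CPM after sham, with no overlap. The log2 fold change of Cd14 was -0.20 ± 0.25 in T497A (adjusted p = 0.83) and 1.32 ± 0.25 in WT (2.498-fold, adjusted p = 0.0019). Tlr4, the receptor that CD14 serves, rose in WT by 0.63 ± 0.14 and had 0.40 ± 0.14 in T497A (adjusted p = 0.30). Of 12 partner and sister genes of these receptors 2 were called in WT, Tlr8 and Tlr13, and 0 in T497A, where 3 had an unadjusted p under 0.05. The 2 WT calls are 16.7% of this list, near the 12.3% of all tested genes called higher in WT.

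Between genotypes after TAC, Cd14, Fcgr2b and C1qa were lower in T497A, and no member was higher. These are 7.69% of the members, against 4.06% of all tested genes called lower and 4.64% called higher. Cd14 averaged 3.18 ± 0.94 CPM in T497A TAC and 6.88 ± 0.62 CPM in WT TAC (SD, n = 3 each), a log2 fold change of -1.12 ± 0.25 (adjusted p = 0.016). Fcgr2b averaged 6.43 ± 2.06 CPM in T497A TAC and 10.6 ± 0.38 CPM in WT TAC (-0.72 ± 0.20, adjusted p = 0.043), and C1qa averaged 33.3 ± 5.72 CPM in T497A TAC and 44.6 ± 3.21 CPM in WT TAC (-0.42 ± 0.12, adjusted p = 0.040). The median over the 39 was -0.27, against 0.0028 for all tested genes. In 7 members, 17.9%, every T497A TAC library lay below every WT TAC library, as in 13.6% of all tested genes.

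**Figure D2:**
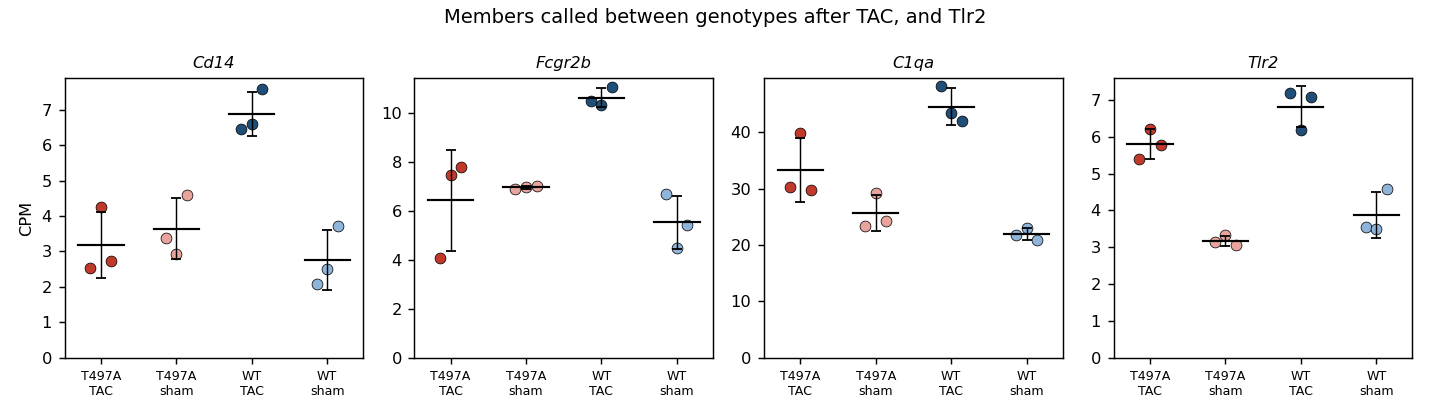
CPM of Cd14, Fcgr2b, C1qa and Tlr2 in each library, with the group mean and SD of 3 libraries. Cd14, Fcgr2b and C1qa lay lower in every T497A TAC library than in every WT TAC library, while Tlr2 was higher after TAC than after sham in both genotypes.

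The 3 calls changed when single libraries were left out. They numbered 0 without WT TAC replicate 3 or T497A TAC replicate 1, 1 without WT TAC replicate 1, WT TAC replicate 2 or T497A TAC replicate 3, and 5 without T497A TAC replicate 2. The 1 call left was Cd14 without WT TAC replicate 1 or 2 and Fcgr2b without T497A TAC replicate 3. Calls over all tested genes, 1371 with all libraries, changed too. They numbered 463 without WT TAC replicate 3, 653 without T497A TAC replicate 1 and 592 without T497A TAC replicate 3. Without WT TAC replicate 1, WT TAC replicate 2 or T497A TAC replicate 2 they numbered 876, 1058 and 1455.

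The interaction compares the TAC response of T497A with that of WT directly. With edgeR 0 of 39 members were called, against 0.894% of all tested genes called with a higher and 0.679% with a lower response in T497A. With limma-voom 1 was called and with DESeq2 6, where calls over all genes numbered 224 with limma-voom and 859 with DESeq2, against 248 with edgeR. With edgeR 9 members had an unadjusted p under 0.05, all with the smaller response in T497A, against 1245 of the 15764 tested genes in that direction. The interaction lay below 0 in 34 of the 39, with a median of -0.38, against -0.0016 for all tested genes. Cd14 came closest, at -1.52 ± 0.36 (adjusted p = 0.0502), followed by C1qa at -0.64 ± 0.17 (adjusted p = 0.068), Fcgr2b at -1.06 ± 0.29 (adjusted p = 0.083) and Fcgr3 at -0.86 ± 0.24 (adjusted p = 0.084). Lgals3 had the largest value, -1.64 ± 0.50 (adjusted p = 0.12). Without T497A TAC replicate 2 the count was 3, where calls over all genes numbered 517, against 248 with all libraries. Both this contrast and that between genotypes after TAC use the T497A TAC and WT TAC libraries, so their values are not independent.

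After sham surgery no member differed between the genotypes with edgeR, limma-voom or DESeq2, and 0.0254% of all tested genes were called higher in T497A. The median log2 fold change was 0.15, against 0.0024 for all tested genes, and 31 of the 39 lay above 0. In 5 members, 12.8%, the T497A sham libraries all lay above the WT sham libraries, which held for 4.23% of tested genes. These were Cd68, Fcgr2b, C1qa, Mpeg1 and Lgals3, and their sham libraries enter the interaction. Tlr2 lay lower in every T497A sham library (3.14, 3.33 and 3.06 CPM) than in every WT sham library (3.56, 3.49 and 4.59 CPM). That is 1 member, 2.56%, against 3.98% of tested genes. The T497A sham libraries also enter the TAC effect of Tlr2 in T497A. With edgeR 1 member had an unadjusted p under 0.05, Mpeg1, at 13.1 ± 0.28 CPM in T497A sham and 7.09 ± 1.65 CPM in WT sham (SD, n = 3 each; 0.88 ± 0.22, adjusted p = 1).

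Lgals3, Trem2, Gpnmb and Plac8 mark recruited or activated macrophages. Lgals3 encodes galectin-3, which promotes fibrosis. It was at 2.01, 5.07 and 5.23 CPM in T497A TAC and 2.64, 2.30 and 2.33 CPM in T497A sham. In WT Lgals3 was at 7.41, 4.80 and 10.3 CPM after TAC and 1.39, 1.74 and 1.10 CPM after sham. WT groups stood apart, while T497A TAC replicate 1 lay below all T497A sham libraries. Lgals3 had the largest change of all members in WT, 5.27-fold (log2 fold change 2.40 ± 0.36, adjusted p = 0.00052), and 0.76 ± 0.35 in T497A (adjusted p = 0.43).

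Trem2 encodes a lipid-sensing receptor of phagocytes. It was at 0.469, 2.46 and 0.927 CPM in T497A TAC, 0.697, 0.499 and 0.660 CPM in T497A sham, 1.97, 2.49 and 1.30 CPM in WT TAC and 0.785, 0.782 and 0.290 CPM in WT sham. T497A TAC replicate 2 was as high as the WT TAC libraries and replicate 1 was below all 3 T497A sham libraries. Trem2 rose in WT (1.61 ± 0.53, adjusted p = 0.041), a call lost without any 1 WT library other than TAC replicate 3, and had 1.04 ± 0.54 in T497A. Gpnmb, a glycoprotein of lipid-laden macrophages, was at 3.26, 2.27 and 1.58 CPM in T497A TAC, 2.26, 1.55 and 1.17 CPM in T497A sham, 2.37, 2.49 and 2.61 CPM in WT TAC and 0.970, 1.16 and 1.92 CPM in WT sham. It did not pass in either genotype (0.51 ± 0.32 in T497A and 0.89 ± 0.33 in WT, adjusted p = 0.063). Plac8, a gene of blood monocytes, rested on 10, 16 and 44 counts in T497A TAC, 2, 16 and 0 in T497A sham, 30, 24 and 6 in WT TAC and 4, 10 and 2 in WT sham. Its log2 fold changes, 1.77 ± 1.01 in T497A and 1.80 ± 1.03 in WT, were within 2 standard errors of 0.

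Lyve1, Timd4, Folr2, Cd163 and Mrc1 mark resident macrophages. Mrc1, the mannose receptor, was at 33.0, 48.5 and 41.6 CPM in T497A TAC, 34.3, 45.7 and 37.0 CPM in T497A sham, 61.5, 48.1 and 49.99 CPM in WT TAC and 36.2, 39.6 and 37.8 CPM in WT sham. It was the resident gene that rose in WT (0.49 ± 0.14, adjusted p = 0.024), and it had 0.07 ± 0.14 in T497A. The call was lost without WT sham replicate 1, WT sham replicate 3 or WT TAC replicate 1. The other 4 were not called in either genotype.

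Lyve1, a hyaluronan receptor shared with lymphatic endothelium, was at 10.7, 13.7 and 20.4 CPM in T497A TAC, 24.0, 12.8 and 17.0 CPM in T497A sham, 14.9, 23.5 and 17.3 CPM in WT TAC and 22.0, 16.5 and 13.2 CPM in WT sham. Cd163, the haemoglobin scavenger receptor, was at 10.3, 13.6 and 14.5 CPM in T497A TAC, 19.0, 13.4 and 17.3 CPM in T497A sham, 14.6, 17.4 and 10.9 CPM in WT TAC and 19.9, 14.3 and 13.6 CPM in WT sham. Both overlapped between TAC and sham in each genotype. Timd4, a receptor for phosphatidylserine on dying cells, was at 1.205, 2.05 and 1.598 CPM in T497A TAC, 1.39, 1.75 and 1.89 CPM in T497A sham, 1.93, 0.785 and 0.862 CPM in WT TAC and 1.57, 1.83 and 2.73 CPM in WT sham. In WT 2 of the 3 TAC libraries lay below all sham libraries, and the log2 fold change was -0.77 ± 0.35 (adjusted p = 0.13), the lowest of all members. Folr2, a folate receptor, was at 1.70, 1.64 and 1.55 CPM in T497A TAC, 1.64, 1.53 and 1.19 CPM in T497A sham, 1.99, 1.02 and 0.652 CPM in WT TAC and 1.55, 2.12 and 1.07 CPM in WT sham. Its log2 fold change was 0.17 ± 0.36 in T497A and -0.38 ± 0.36 in WT, and its exons overlap the predicted gene Gm10602 on the other strand.

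**Figure D3:**
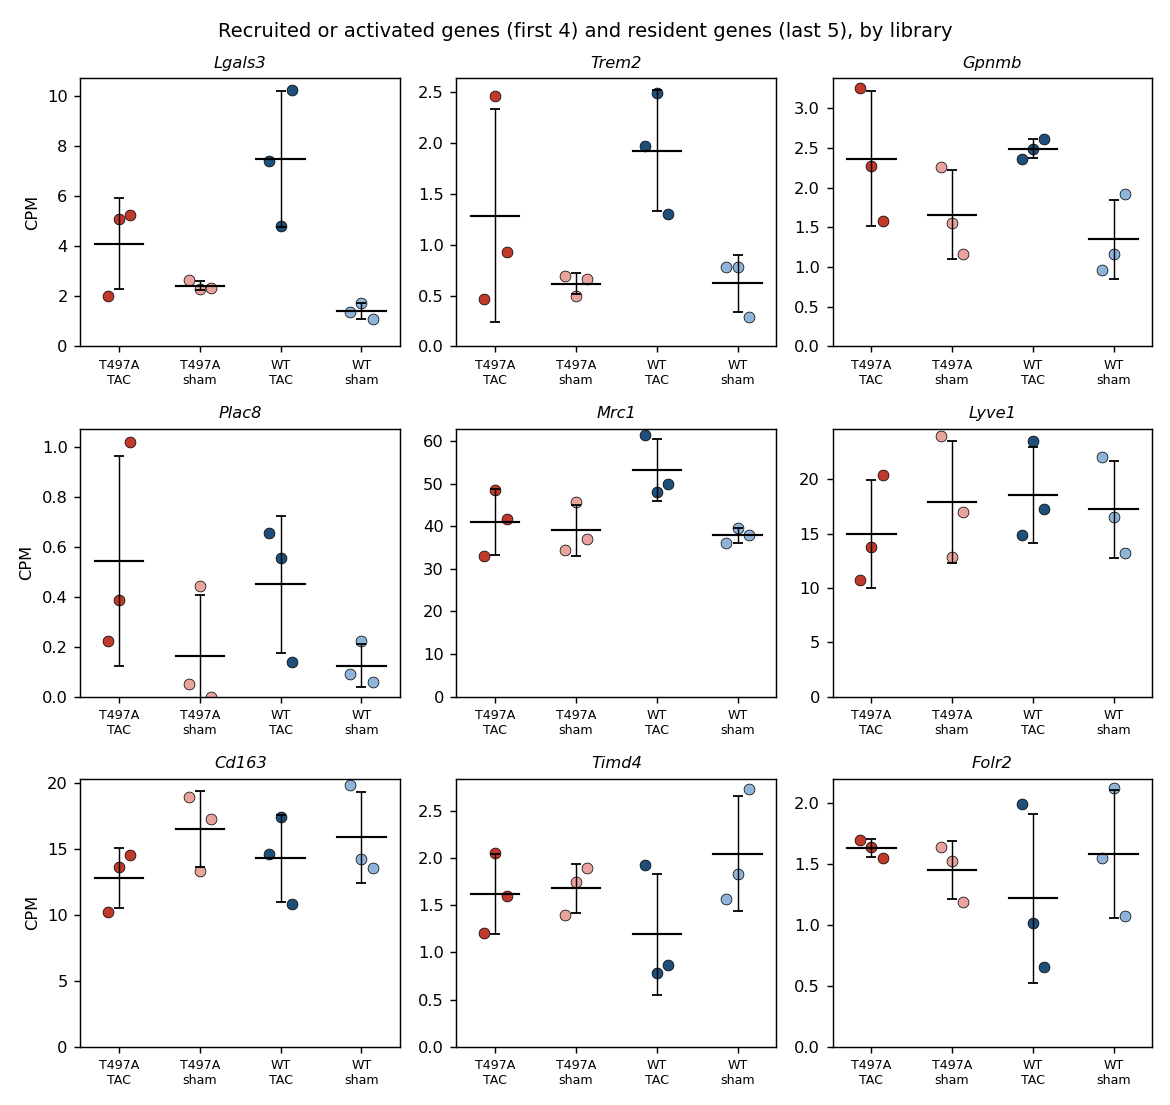
CPM of the 4 recruited or activated genes and the 5 resident genes in each library, with the group mean and SD of 3 libraries. WT TAC stands apart from WT sham for Lgals3, Trem2, Gpnmb and Mrc1, and for no gene of the 9 do the T497A groups stand apart.

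The recruited or activated genes had a median log2 fold change of 0.90 in T497A and 1.71 in WT, and the resident genes -0.05 in T497A and -0.15 in WT. The difference of these medians was 0.95 in T497A and 1.86 in WT. For the interaction it was -0.26, and it lay at -0.62 without WT sham replicate 2 and -0.64 without T497A TAC replicate 2. Per library, the mean log2 CPM of the recruited or activated genes minus that of the resident genes was -2.61, -2.07 and -2.21 in T497A TAC, -3.33, -2.89 and -3.78 in T497A sham, -1.98, -1.76 and -1.81 in WT TAC and -3.70, -3.30 and -3.78 in WT sham. Every TAC library lay above every sham library, and every WT TAC library above every T497A TAC library. The order of the genotypes depends on Plac8, which rests on 0 to 44 counts and weighs as much as each other gene of its set. Without Plac8, T497A TAC replicate 2 would lie above WT TAC replicate 1. These sums over chosen genes are descriptions and were not tested.

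To set the resident genes against the amount of macrophage RNA, each was divided by a general macrophage level, the mean log2 CPM of 11 widely shared markers. That level was 3.58 ± 0.31 in T497A TAC, 3.28 ± 0.11 in T497A sham, 3.90 ± 0.14 in WT TAC and 3.08 ± 0.14 in WT sham (SD, n = 3 each). Relative to it, all 5 resident genes lay lower in every WT TAC library than in every WT sham library, but so did 72.2% of all tested genes, since the level itself was higher after TAC. In T497A this held for 3 of 5, Timd4, Cd163 and Mrc1, against 13.5% of all tested genes. The ratio of Mrc1 on the log2 scale was 1.76 ± 0.04 in T497A TAC and 2.00 ± 0.11 in T497A sham, and 1.83 ± 0.05 in WT TAC and 2.17 ± 0.11 in WT sham. For Lgals3 the ratio was -1.65 ± 0.52 in T497A TAC and -1.97 ± 0.20 in T497A sham, and -1.05 ± 0.53 in WT TAC and -2.56 ± 0.18 in WT sham.

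**Figure D4:**
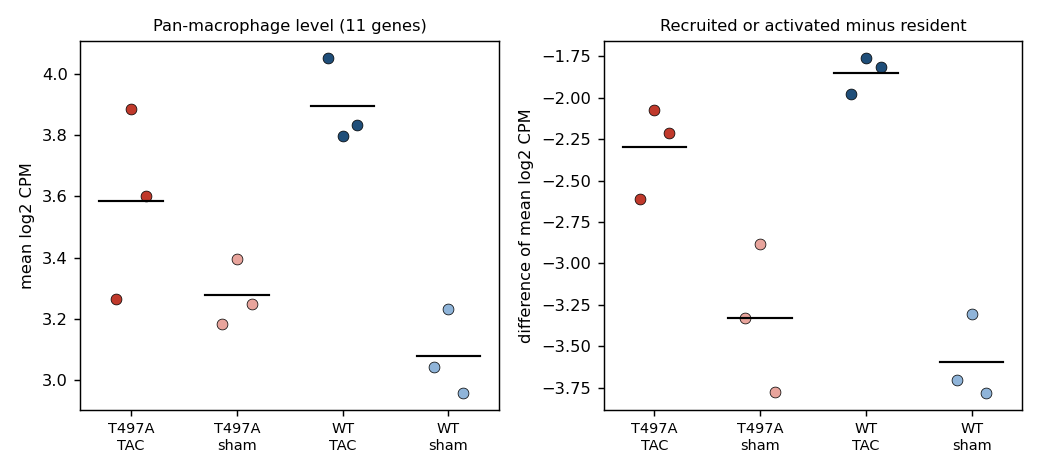
Left, mean log2 CPM of 11 general macrophage genes in each library, with group means as lines (3.58 in T497A TAC, 3.28 in T497A sham, 3.90 in WT TAC and 3.08 in WT sham). Right, mean log2 CPM of the 4 recruited or activated genes minus that of the 5 resident genes, in which every TAC library lies above every sham library.

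Among the other genes of uptake, Mertk, a receptor for dead cells, was not called in either genotype (-0.25 ± 0.20 in T497A and 0.12 ± 0.20 in WT). Msr1, a scavenger receptor, had 0.56 ± 0.26 in T497A and 0.66 ± 0.26 in WT (adjusted p = 0.081), and neither was called. Siglec1, which encodes CD169 and was picked for its spread after its values were seen, was at 5.11, 5.61 and 5.26 CPM in T497A TAC and 3.19, 3.94 and 3.06 CPM in T497A sham, which did not overlap. In WT 1 TAC library, at 7.25 CPM, stood far above the other 2 at 3.72 and 3.43 CPM, close to the sham libraries at 3.601, 3.51 and 3.11 CPM. Of 11 partner genes of dead cell uptake, 9 were called higher and 1 lower in WT, and 0 in T497A, where 3 had an unadjusted p under 0.05 and a higher level and 1 a lower one. Itgb5, an integrin subunit (0.85 ± 0.10), and the receptor kinase gene Axl (0.74 ± 0.10) had the smallest p. These partners are also expressed by fibroblasts and endothelium.

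Among the T497A TAC libraries replicate 2 was the highest of the 3 in 27 of the 39 members and replicate 1 the lowest in 26. Of the 39 members, 19 in replicate 1, 31 in replicate 2 and 22 in replicate 3 lay above every T497A sham library. In WT TAC replicates 1, 2 and 3 the number above every WT sham library was 34, 33 and 31. The summed level of the members was 488, 639 and 532 CPM in T497A TAC, between 436 and 517 CPM in T497A sham, 744, 619 and 652 CPM in WT TAC and between 408 and 473 CPM in WT sham. T497A TAC replicate 1 thus lay within the range of T497A sham, and replicate 2 within that of WT TAC.

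**Figure D5:**
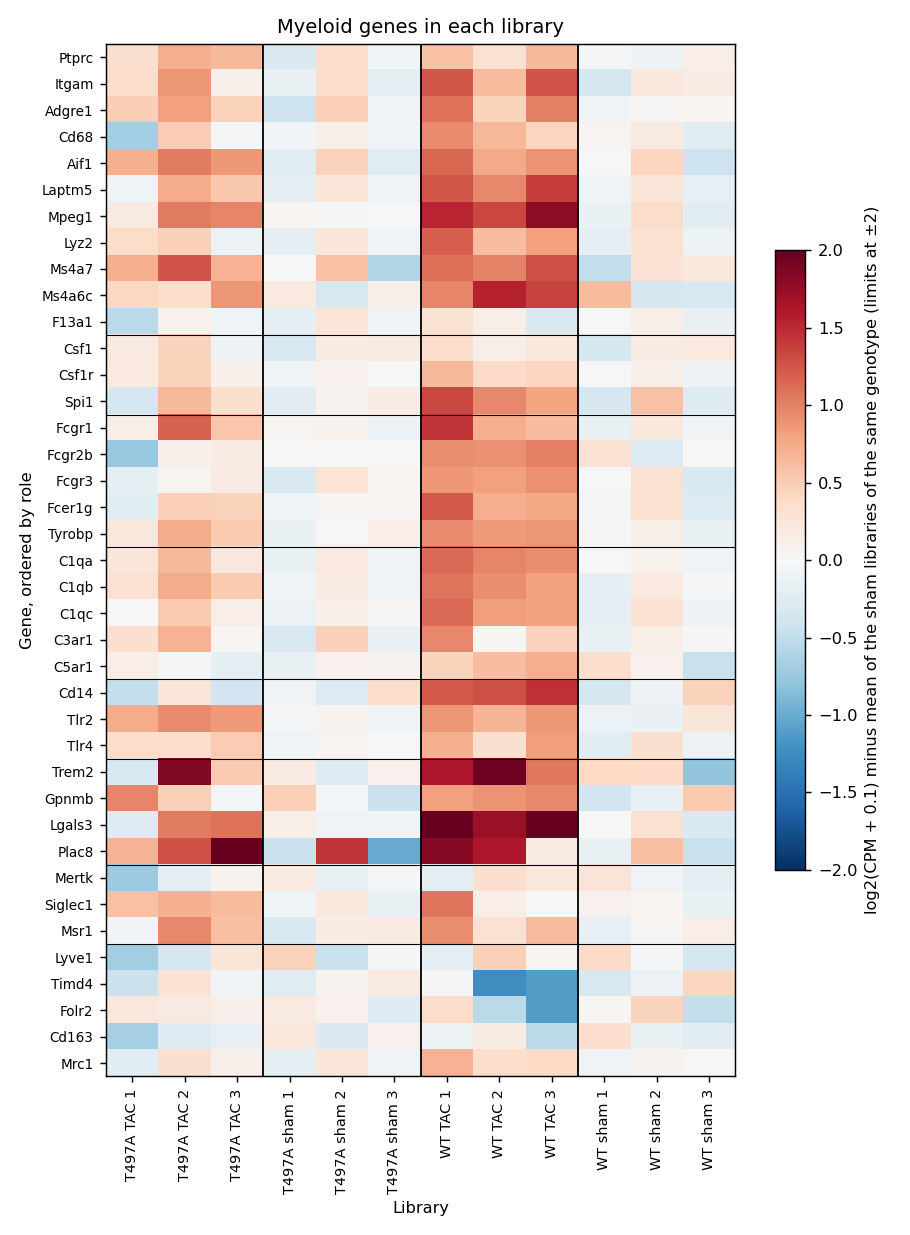
Each of the 39 genes in each library as log2(CPM + 0.1) minus the mean of the sham libraries of the same genotype, with colours limited at -2 and 2. Genes run by role from general markers at the top to resident genes at the bottom, and T497A TAC replicate 1 shows fewer high genes than replicate 2, 19 against 31 above every T497A sham library.

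Related genes outside the 39 were counted by list, and which cells of the tissue expressed them was not tested. Over all tested genes 12.3% were called higher and 12.6% lower in WT, and 0.0634% higher in T497A. Of 11 measured genes of monocytes and infiltrating cells 6 were called higher in WT and 0 in T497A, where 4 had an unadjusted p under 0.05. Ace, which monocytes share with endothelium, rose in WT by 1.31 ± 0.12, and Fn1, the fibronectin gene, by 1.27 ± 0.14. Of 6 genes of the phagocyte oxidase 5 rose in WT and 0 in T497A (1 with an unadjusted p under 0.05), among them the subunit gene Ncf1 (1.37 ± 0.24). Of 18 genes of lipid handling and lysosomes 9 were called higher and 1 lower in WT, with the smallest p for Npc2 (0.54 ± 0.07) and Ctsz (1.08 ± 0.15). In T497A 1 of these 18 was called, Ctss, a cathepsin of antigen-presenting cells chosen here after its value was seen, at 0.87 ± 0.15 (adjusted p = 0.045).

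Markers of other cell types changed beside the members. Of 8 fibroblast markers 6 rose in WT and 0 were called in T497A (5 with an unadjusted p under 0.05), and their summed level was 1567 to 2189 CPM in T497A TAC, 1089 to 1537 CPM in T497A sham, 3206 to 3556 CPM in WT TAC and 1073 to 1279 CPM in WT sham. Col1a2 (1.77 ± 0.17) and Dcn (0.64 ± 0.08) had the smallest p in WT. Of 8 cardiomyocyte markers 7 fell in WT, among them Ryr2 (-0.86 ± 0.12) and Tnni3 (-0.63 ± 0.08), with sums of 46887 to 48757 CPM in T497A TAC, 50241 to 58659 CPM in T497A sham, 39473 to 47614 CPM in WT TAC and 54731 to 62996 CPM in WT sham. In T497A 0 were called, 6 had an unadjusted p under 0.05 and a lower level after TAC, and all 8 log2 fold changes lay below 0. CPM are relative levels, scaled here by library size and TMM factors. Those factors were 1.06 to 1.12 in WT TAC and 0.93 to 0.99 in WT sham. A change in the mix of cells can still move CPM, and its part in the members' changes was not tested. Of 6 erythrocyte markers 3 rose in WT (Alas2 0.73 ± 0.19), with sums of 134 to 233 CPM in T497A TAC, 171 to 194 CPM in T497A sham, 213 to 301 CPM in WT TAC and 120 to 179 CPM in WT sham. Of 6 lymphatic endothelial markers 3 rose in WT, Pdpn (1.38 ± 0.19) and Ccl21a (0.80 ± 0.16) among them, while Prox1, named after its value was seen, had -0.63 ± 0.22 (adjusted p = 0.058), with every WT TAC library below every WT sham library. The 6 summed to 173 to 188 CPM in T497A TAC, 162 to 212 CPM in T497A sham, 140.5 to 171 CPM in WT TAC and 167 to 198 CPM in WT sham. Of 8 endothelial markers 1 rose in WT, Esam (0.39 ± 0.08), and their sums overlapped between all groups, at 710 to 951 CPM in T497A TAC, 684 to 962 CPM in T497A sham, 715 to 884 CPM in WT TAC and 717 to 867 CPM in WT sham. The 1 endothelial call is 12.5% of its list, near the 12.3% of all tested genes called higher in WT.

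Markers of other blood cells were low. Ly6g, which defines neutrophils, was at 0 in all 12 libraries, and 10 neutrophil markers summed to at most 2.19 CPM except in T497A TAC replicate 1, at 9.04 CPM. There Mmp9 alone was at 7.83 CPM, against 0.290 and 0.162 CPM in the other T497A TAC libraries. Of 3 neutrophil markers that could be tested none was called in T497A or WT or had an unadjusted p under 0.05, S100a9 and S100a8 among them. Of 6 dendritic cell markers 1, Clec9a, was called in WT (0.70 ± 0.24), with sums of 15.8 to 19.0 CPM in T497A TAC, 16.03 to 19.4 CPM in T497A sham, 18.4 to 20.02 CPM in WT TAC and 13.1 to 16.5 CPM in WT sham. The 1 dendritic call is 16.7% of its list, near the 12.3% of all tested genes called higher in WT. Of 10 lymphocyte markers, 5 mast cell markers and 3 platelet markers that could be tested none was called in either genotype, and an unadjusted p under 0.05 was met by 2 lymphocyte markers in T497A and by 1 lymphocyte and 1 platelet marker in WT. Lymphocyte markers summed to 4.93 to 6.35 CPM in T497A TAC, 2.69 to 5.08 CPM in T497A sham, 3.52 to 4.78 CPM in WT TAC and 1.66 to 3.13 CPM in WT sham.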

How the data were processed

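RNA sequencing of left ventricle gave 12 libraries, put into 4 groups of 3 by their labels. Titles give 1 replicate number throughout; replicates are therefore numbered in accession order and pair no libraries. Per the labels' protocols, an mRNA HyperPrep kit and single-end reads of 75 cycles were used. The authors deposited whole-number read counts per gene, not normalized. STAR 2.7.3a, Subread 1.6.3 with featureCounts, Trim Galore 0.6.4, limma 3.50.3 and the build mm10 are named in the submitters' processing notes. How they were set, which annotation was counted and whether strand was used is not given in the sources used here.

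Counts were fitted with edgeR 4.0.16 in R 4.3.3 (filterByExpr with a minimum count of 10, TMM, glmQLFit with robust estimation, glmQLFTest) in 1 model over 4 groups, with Benjamini-Hochberg adjustment over 15764 genes and a threshold of 0.05. A standard error (SE) was had by dividing each log2 change by the root of its F statistic. CPM use TMM factors, and log2 CPM a prior count of 2. The biological coefficient of variation was 17.2%, and replicate pairs differed beyond sampling noise (chi-square per degree of freedom 21.9 to 60.3 over 12 pairs). Alternatives were limma-voom (limma 3.58.1), DESeq2 1.42.0, RLE factors, no low-count filter, mitochondrial genes left out, only the libraries compared, each library left out and, added after the even counts were seen, counts halved. Positions and exon lengths come from GENCODE for GRCm38, to which all 39 identifiers matched, and promoters from RefSeq.

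The members and the gene lists were chosen with earlier results of these data known. Named per library are the resident and recruited genes, the members called in T497A or between genotypes, Csf1, Csf1r, Spi1, Adgre1, Ptprc, Cd68 and the 3 largest and 3 smallest changes in WT; of each other list, the 2 tested genes with the smallest p in WT, of which 1 is not reported here.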

Additional observations from a re-analysis of the deposited data

Results flagged for a closer look

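Among the named genes of the lists related to myeloid cells, outside the members, 3 had TAC responses that differed between the genotypes by edgeR's interaction test. Over all tested genes, 0.679% were called with a lower and 0.894% with a higher response in T497A. Genes outside the members were named for a small p for TAC in WT, and the WT libraries also enter the interaction. That choice favours genes with the larger response in WT, so these calls are not independent of it. For Ace, which encodes angiotensin converting enzyme, the log2 fold change was 0.42 ± 0.12 in T497A and 1.31 ± 0.12 in WT, a difference of -0.89 ± 0.17 (adjusted p = 0.027). Its level was 100.4, 132.2 and 94.9 CPM in T497A TAC, 86.2, 77.8 and 80.6 CPM in T497A sham, 218, 177 and 170.3 CPM in WT TAC and 79.7, 77.4 and 71.2 CPM in WT sham. Endothelial cells express Ace too. For Npc2, a lysosomal cholesterol transporter, it was -0.0037 ± 0.07 in T497A and 0.54 ± 0.07 in WT, a difference of -0.54 ± 0.10 (adjusted p = 0.019), with every WT TAC library at 50.4 CPM or more and every other library at 42.2 CPM or less. For Syk, the kinase that binds ITAM adaptors, it was 0.09 ± 0.09 in T497A and 0.78 ± 0.09 in WT, a difference of -0.69 ± 0.13 (adjusted p = 0.023), with levels of 29.2 to 32.5 CPM in T497A TAC, 27.4 to 31.9 CPM in T497A sham, 40.4 to 46.4 CPM in WT TAC and 23.1 to 27.6 CPM in WT sham. Among the markers of other cell types, the same test was passed by Col1a2 of fibroblasts, at 0.66 ± 0.17 in T497A and 1.77 ± 0.17 in WT (difference -1.11 ± 0.24, adjusted p = 0.048), and Ryr2 of cardiomyocytes, at -0.08 ± 0.12 in T497A and -0.86 ± 0.12 in WT (difference 0.78 ± 0.17, adjusted p = 0.043). No member itself passed this test with edgeR. Groups of 3 libraries are too small for a test of single outlying libraries.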

How the results depend on the processing

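The 26 members called in WT numbered 26 to 28 under the 7 alternatives that kept all libraries compared and 18 to 24 with each library left out, and 17 of the 26 were called in every one of the 13 alternatives. For TAC in T497A the count of 1 became 0 with limma-voom, 3 with DESeq2, 5 without the low-count filter and 0 with only the libraries compared, where calls over all genes numbered 13, 297, 331 and 0, against 18 in the reported fit. It was 0 to 2 with each library left out. For the interaction the count of 0 became 1 with limma-voom, 6 with DESeq2, 6 without the filter (898 over all genes, against 248), 1 with mitochondrial genes left out and 1 with counts halved (an alternative chosen after seeing the data), and 0 to 3 with each library left out. For T497A against WT after TAC the count of 3 became 4 with limma-voom, 5 with DESeq2, 7 without the filter and 2 with only the libraries compared (1465, 2010, 1757 and 916 over all genes, against 1371), and 0 to 5 with each library left out. After sham it was 0 throughout. Calls over all genes also moved with each library left out. They ran from 2766 to 3483 for TAC in WT (3936 in the reported fit) and from 0 to 36 for TAC in T497A. For the interaction they ran from 40 to 517, and for T497A against WT after TAC from 463 to 1455. The difference of the recruited and resident medians with a library left out ran from 1.65 to 2.27 in WT (2.27 without WT sham replicate 2), from 0.76 to 1.15 in T497A and from -0.64 to -0.0930 for the interaction (-0.62 without WT sham replicate 2). The WT libraries alone gave no value in WT, since Plac8 had none there. Uncalled values changed sign when 1 library was left out for Lyve1 (-0.10 to 0.32) and Cd163 (-0.32 to 0.0381) in WT, Cd14 (-0.47 to 0.0021) and Fcgr2b (-0.28 to 0.13) in T497A and Tlr2 in the interaction (-0.0846 to 0.12). The causes were not tested. No paired analysis was possible because the titles give 1 replicate number throughout. With 3 libraries a group and low counts for Plac8 and Trem2, differences of the size of their standard errors were not detectable.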
